A study of Mus musculus with 2 samples.

Results

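The genes described here are the Wnt ligands, the Frizzled receptors and the co-receptors that stand beside them, in intestinal subepithelial myofibroblasts (ISEMFs), the contractile mesenchymal cells that lie under the crypt epithelium. They were chosen by symbol among the protein-coding genes of the deposited table: every Wnt and Fzd gene followed by a number, plus Lrp5, Lrp6, Ror1, Ror2 and Ryk. This gave 34 of 22379 protein-coding genes, namely 19 Wnt ligands, 10 Frizzled receptors and 5 co-receptors. RNA was sequenced from 1 library of supportive ISEMFs, grown from the small intestine of 5-day-old neonatal C57BL/6 mice, and from 1 library of non-supportive ISEMFs, grown from 2-month-old adult C57BL/6 mice. Supportive cultures let crypts form enteroids without added R-spondin, and non-supportive cultures did so only weakly. Both were wild type, had no treatment given in the labels and were isolated by the same digestion into mesenchyme-rich fragments, then expanded in medium with serum, insulin, transferrin and EGF. The number of animals behind each culture was not given in the sources used here. The deposited names carry a different code for each library that may stand for its culture passage, with the higher number for supportive ISEMFs, but no label explains it. Since each population stands for 1 library, the differences below have no replicate check and no test, and population, age, isolation and any difference in passage cannot be told apart.

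Wnt proteins are secreted, lipid-modified signals. They bind the extracellular cysteine-rich domain of Frizzled, a receptor with several membrane-spanning segments. Together with Lrp5 or Lrp6, Frizzled passes the signal on through β-catenin, which keeps intestinal stem cells dividing. With Ror1, Ror2 or Ryk as partners, Wnts can act without β-catenin, and Wnt5a is the ligand best known for this branch. In the gut, the epithelium and the mesenchyme around the crypt are both known sources of Wnts.

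The supportive library held 50674472 reads on genes and the non-supportive library 49615497. Levels are given as RPKM, the reads of a gene scaled to its exon length and to the size of the library, which can be compared between genes because the unit is per length. Ratios are of the RPKM values, each with the 95% interval that the exact Clopper-Pearson limits of the gene's read share allow, which covers counting error and nothing else. A gene was called different when its log2 ratio, with 0.1 added to each RPKM, was at least 1 in either direction and 1 or both libraries reached 1 RPKM. The added 0.1 shrinks the log2 ratio of genes near 0. Acta2 and Vim, which mark myofibroblasts, stood between 325 and 1410 RPKM in both libraries, while Des was at 0.575 RPKM in supportive and 3.40 in non-supportive ISEMFs. All 8 macrophage markers checked were lower in the supportive library, with a summed RPKM of 6.95 against 122 in the non-supportive one, single markers between 0 and 6.31 against 0.659 and 72.7, and no supportive read for Tyrobp, Emr1 and Ptprc. The 5 smooth muscle markers summed to 357 against 590 RPKM, with Myh11 and Cnn1 lower in supportive ISEMFs and Myocd going the other way with 591 reads against 37. The 7 fibroblast markers summed to 1359 against 541 RPKM, with 5 called higher, Pdgfra lower at 3.37 against 12.1 RPKM, and Col1a1 not called. Of 6 epithelial markers, Lgr5 in the supportive library (RPKM 7.22) and Krt20 in the non-supportive library (3.13) passed an RPKM of 1, while Cdh1 had 159 supportive reads against 18, and Epcam, Vil1 and Cdx2 had at most 8 reads in either.

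Several members are close paralogs, so a reading of their levels depends on whether a 50-base read can tell them apart. The stretches printed here are the 60 coding bases over which each set is most alike, among windows without gaps inside a single exon. They are from GENCODE vM1 transcripts on mm9, 5′ to 3′ on the coding strand. Capitals mark the positions at which the genes of a set differ.
Wnt5a: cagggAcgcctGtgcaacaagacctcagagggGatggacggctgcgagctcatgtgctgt
Wnt5b: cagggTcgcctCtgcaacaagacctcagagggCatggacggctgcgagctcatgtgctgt
Fzd1: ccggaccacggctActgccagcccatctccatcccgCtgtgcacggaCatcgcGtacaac
Fzd2: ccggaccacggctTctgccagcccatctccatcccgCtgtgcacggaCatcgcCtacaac
Fzd7: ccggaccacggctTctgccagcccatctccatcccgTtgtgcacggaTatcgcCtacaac
Ror1: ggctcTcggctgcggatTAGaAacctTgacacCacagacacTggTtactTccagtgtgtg
Ror2: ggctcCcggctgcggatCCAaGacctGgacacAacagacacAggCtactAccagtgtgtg

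The Wnt5a stretch lies in exon 5 of 5 at chr14:29335944-29336003 on the plus strand, and that of Wnt5b in exon 5 of 5 at chr6:119383539-119383598 on the minus strand. These genes differed at 3 of the 60 positions. The Fzd1, Fzd2 and Fzd7 stretches lie in the single exon of each gene, at chr5:4757206-4757265 on the minus strand, chr11:102466160-102466219 on the plus strand and chr1:59539933-59539992 on the plus strand, and 4 positions were not shared by all of them. The Ror1 stretch lies in exon 3 of 9 at chr4:100006389-100006448 on the plus strand and the Ror2 stretch in exon 3 of 9 at chr13:53227174-53227233 on the minus strand, with 10 differing positions. Over the whole coding sequence, Fzd1 and Fzd2 had 78.9% identical bases, Fzd2 and Fzd7 76.3%, Fzd1 and Fzd7 75.8%, Wnt5a and Wnt5b 76.1%, and Ror1 and Ror2 63.7%.

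No 50-base stretch of any Frizzled or co-receptor transcript was found in the transcripts of another protein-coding gene. Of the 34 members, 2 had such a stretch, Wnt4 with 3.26% of its stretches and Wnt16 with 0.143%. The authors allowed 2 mismatches a read. Of the aligned 50-base windows, 195 of 1373 between Fzd1 and Fzd2 had at most 2 mismatches, as did 63 of 1365 between Fzd1 and Fzd7, 39 of 1469 between Fzd2 and Fzd7, 7 of 1173 between Fzd5 and Fzd8, and 10 of 985 between Wnt5a and Wnt5b. There was no such window between Ror1 and Ror2. Reads from those windows could have been set aside as not unique, and their share was not tested.

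Of the 34 members, 13 reached an RPKM of 1 in either library, 1 ligand, 8 Frizzleds and 4 co-receptors. Over all protein-coding genes 40.7% did so. No read in either library was found for 5 members, as for 26.7% of all protein-coding genes. A 2-fold difference was called for 10 of the 13, 7 higher and 3 lower in supportive ISEMFs, where 18.2% of the 9110 protein-coding genes passing the same minimum were called, 9.25% higher and 8.98% lower. At 4-fold, 4 members were called (Wnt5a, Fzd1, Fzd3 and Ror1), beside 6.62% of these genes. The 10 comprised the single expressed ligand, all 8 expressed Frizzleds and 1 of the 4 expressed co-receptors. With 1 in place of 0.1 added to each RPKM, Fzd6 and Fzd8 were no longer called, at log2 ratios of 0.82 and 0.65. Wnt5a, Fzd3, Fzd8 and Ror1 passed the minimum through the library in which they were high, which favours a call. Of the 9 members that reached 1 RPKM in both libraries, 6 were called, all of them Frizzleds, beside 11.8% of all protein-coding genes passing that stricter minimum. The median log2 ratio of the 13 members was 1.04 and that of the 9110 genes was -0.07. The direction of the members' median depends on the minimum, since it was -0.18 over the 20 members with at least 10 reads and 0 over all 34. The median sizes without regard to sign were 1.18 and 0.41. For all 13 members the counting interval of the ratio excluded 1, as it did for 84.7% of the 9110 genes.

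**Figure D1:**
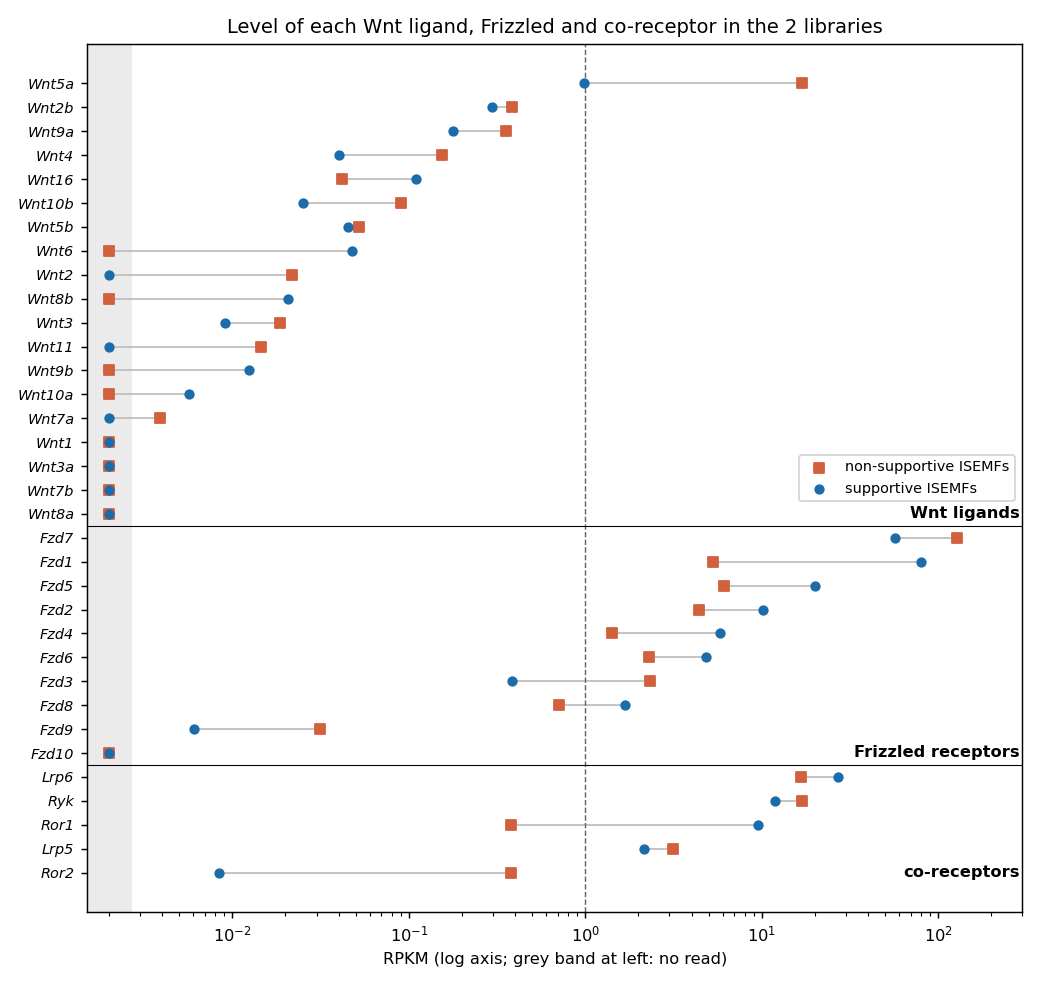
RPKM on a log axis for each of the 34 members in the supportive (blue circles) and non-supportive (red squares) library, grouped by role and ordered by the higher value. The dashed line marks an RPKM of 1, and points in the grey band had no read. Of the 19 ligands, Wnt5a alone lies right of the line, while 8 of the 10 Frizzleds and 4 of the 5 co-receptors have a point there.

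Among the ligands, Wnt5a was the gene with a substantial level. Its 7 exon blocks span chr14:29317936-29340633 (mm9, plus strand). Supportive ISEMFs gave 858 Wnt5a reads (0.983 RPKM) and non-supportive ISEMFs 14403 reads (17.0 RPKM). Wnt5a was thus high in non-supportive and low in supportive ISEMFs, by 17.3-fold (95% interval, 16.1 to 18.5), with a log2 ratio of -3.98. Of the 9110 protein-coding genes that passed the minimum, 77 had a log2 ratio this low or lower, Wnt5a included. Wnt5a passed the minimum through the non-supportive library alone, which favours an extreme place. By RPKM it was at rank 1522 of the protein-coding genes in the non-supportive library and at rank 8540 in the supportive one.

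The 8 macrophage markers were higher in the same library as Wnt5a, as were Myh11, Cnn1 and Pdgfra. So were Rgs5, a pericyte marker, with 188 supportive reads against 749, and Ano1, a marker of interstitial cells of Cajal, with 12 against 1005. Kit, the other marker of interstitial cells of Cajal checked, had only 0 supportive and 6 non-supportive reads. The other pericyte markers checked went the other way, Notch3 with 1369 supportive reads against 88 and Cspg4 with 2553 against 1697. So did 5 of the 7 fibroblast markers, called higher in supportive ISEMFs, and the smooth muscle markers Smtn (4.88 against 3.16 RPKM) and Myocd. Whether any of these cell types had a part in the Wnt5a difference was not tested. In bulk RNA, fewer cells of a type and less RNA per cell cannot be told apart. Of the exon bases of Wnt5a, 358 are shared with a long noncoding RNA, Gm2670, on the opposite strand. Its exons cover 12218 bases in the deposited table and 7822 in GENCODE vM1, and its longest coding transcript has 7009. On the length of that transcript the Wnt5a level would be 1.74 times its RPKM in both libraries, 1.71 in supportive and 29.6 in non-supportive ISEMFs, with an unchanged ratio.

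No other ligand reached an RPKM of 1. The next level on the deposited lengths was that of Wnt2b, a mesenchymal Wnt known to act through β-catenin, with 76 supportive reads (0.298 RPKM) and 96 non-supportive reads (0.387 RPKM). It was 1.30-fold lower with an interval that spans 1 (0.952 to 1.78), and no difference could be resolved at this depth. Wnt9a had 79 reads (0.177 RPKM) against 154 (0.355 RPKM), which is 2.01-fold lower (1.52 to 2.67). On the longest coding transcript Wnt9a stood above Wnt2b, at 0.333 against 0.298 in supportive and 0.668 against 0.387 in non-supportive ISEMFs. Wnt4 had 12 supportive and 45 non-supportive reads, 3.86-fold lower in RPKM (2.01 to 8.01). Wnt10b had 6 and 21 reads, 3.60-fold lower (1.41 to 10.9). Wnt5b, the closest relative of Wnt5a in the family, had 17 and 19 reads, with a ratio whose interval of 0.566 to 2.36 spans 1. These low ligands lay on the same side as Wnt5a or showed no detectable difference, and none of them met the minimum for a call.

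Wnt16 went the other way, with 54 supportive reads (0.110 RPKM) against 20 (0.0421 RPKM), 2.62-fold higher in supportive ISEMFs (1.55 to 4.63). Wnt6 had 7 supportive and 0 non-supportive reads, at least 2.27-fold higher when the empty library is set at 3 reads. Wnt11 had 0 supportive and 6 non-supportive reads, 2.06-fold lower on the same setting, with an interval that starts at 1.21-fold. These few reads place the genes near the limit of detection. Of the other ligands with more than 3 reads in a library, Wnt8b had 5 and Wnt9b 4 supportive reads with 0 in the non-supportive library, Wnt2 had 0 and 5, and Wnt3 had 2 and 4.

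Wnt3, a ligand known from Paneth cells, was therefore near the limit of detection in both populations. Of the last 6 ligands, Wnt10a had 1 supportive and Wnt7a 1 non-supportive read, and Wnt1, Wnt3a, Wnt7b and Wnt8a had none in either library. For Wnt3a, a count of 0 still allows 0.0152 RPKM in supportive and 0.0156 RPKM in non-supportive ISEMFs, which is what 3 reads would give.

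Summed over all 19 ligands, the level was 1.77 RPKM in supportive and 18.1 RPKM in non-supportive ISEMFs, 10.2-fold lower in supportive ISEMFs. Wnt5a made up 55.4% of that sum in supportive and 93.7% in non-supportive ISEMFs. Without Wnt5a, the other 18 ligands summed to 0.791 and 1.14, from 263 and 371 reads. Wnt5a was thus the larger part of the ligand total in both libraries. On the length of the longest coding transcript, the Wnt5a shares were 60.5% and 94.8%.

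Frizzleds were far more abundant than ligands and were split by gene. Fzd1, a receptor of the subgroup it forms with Fzd2 and Fzd7, is a single-exon gene at chr5:4753842-4758216 on the minus strand. Supportive ISEMFs gave 24953 reads (79.8 RPKM) and non-supportive ISEMFs 1615 (5.32 RPKM). The ratio was 15.0-fold higher in supportive ISEMFs (14.3 to 15.8), with a log2 ratio of 3.88. Fzd1 was the Frizzled with the highest RPKM in the supportive library, at rank 186 of protein-coding genes, and stood at rank 4027 in the non-supportive one. Of the 9110 genes, 64 had a log2 ratio at least this high, Fzd1 included.

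Fzd7, known as a receptor of intestinal stem cells, went the opposite way to Fzd1. Its single exon is at chr1:59538991-59543791, plus strand. Reads numbered 19543 in supportive ISEMFs (57.0 RPKM) and 42782 in non-supportive ISEMFs (128 RPKM). This is 2.25-fold lower in supportive ISEMFs (2.21 to 2.29), with a log2 ratio of -1.17. Fzd7 was at rank 122 of protein-coding genes in the non-supportive library and at rank 324 in the supportive one, so it was among the well expressed genes of both. The order of the pair turned around: the Fzd1 level was 1.40 times that of Fzd7 in supportive ISEMFs, and the Fzd7 level was 24.1 times that of Fzd1 in non-supportive ISEMFs.

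Fzd2, the third gene of this subgroup, lies at chr11:102465745-102469372 on the plus strand and had 2621 supportive reads (10.1 RPKM) against 1111 (4.41 RPKM), which is 2.29-fold higher (2.14 to 2.46). Fzd5, a receptor that couples to β-catenin in the gut epithelium, lies at chr1:64777134-64784324 on the minus strand and had 9875 reads (19.99 RPKM) against 2939 (6.12 RPKM). It was 3.27-fold higher in supportive ISEMFs (3.13 to 3.40), with a log2 ratio of 1.69. Its nearest relative Fzd8 had 401 reads (1.68 RPKM) against 165 (0.710 RPKM), 2.36-fold higher (1.97 to 2.85). Both genes of this subgroup therefore lay on the supportive side.

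Fzd4, which also serves as the receptor of the non-Wnt ligand norrin, lies at chr7:96552876-96558620 on the plus strand and had 1530 supportive reads (5.81 RPKM) against 362 (1.41 RPKM). The ratio was 4.11-fold higher in supportive ISEMFs (3.66 to 4.62), with a log2 ratio of 1.96. Fzd6 and Fzd3, which work in planar cell polarity, differed in opposite directions. Fzd6 (chr15:38837879-38869732, plus strand) had 1415 reads (4.85 RPKM) against 653 (2.30 RPKM), 2.11-fold higher (1.92 to 2.31). Fzd3 (chr14:65819863-65881300, minus strand) had 164 reads (0.384 RPKM) against 970 (2.33 RPKM), 6.09-fold lower in supportive ISEMFs (5.15 to 7.23). For Fzd6 and Fzd8 the interval reached below 2, so the counting error alone does not place these genes beyond a 2-fold difference.

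Fzd9 had 1 supportive and 5 non-supportive reads. Fzd10 had no read in either library, but 2430 of its 3250 exon bases are shared with a pseudogene record of the same name on the same strand, also without reads. Reads from the shared bases would have been left out as ambiguous, so its level was not measured over most of its length.

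**Figure D2:**
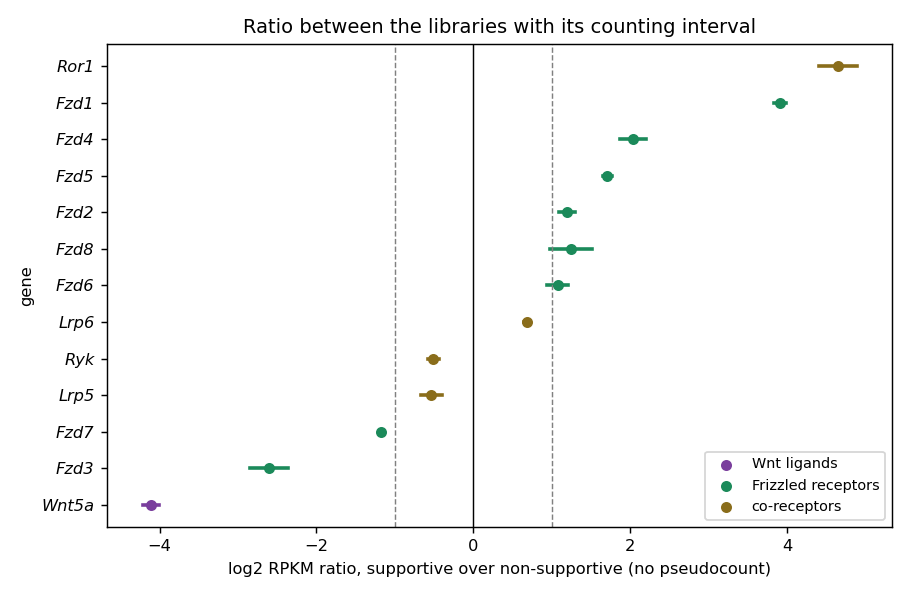
Log2 ratio of the deposited RPKM, supportive over non-supportive and without a pseudocount, for the 13 members that reached 1 RPKM in either library. Bars are 95% exact intervals from the reads and cover counting error only, and dashed lines mark 2-fold. Ror1 and Fzd1 lie furthest to the right at 25.0-fold and 15.0-fold higher, and Wnt5a furthest to the left at 17.3-fold lower.

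The summed RPKM of the 10 Frizzleds was 180 in supportive and 151 in non-supportive ISEMFs, a ratio of 1.19. The totals were close, but the shares of single genes in them differed. Fzd1 made up 44.4% of the sum in supportive and 3.52% in non-supportive ISEMFs, while Fzd7 made up 31.7% and 85.0%. Fzd5 took 11.1% and 4.06%. Without Fzd7, the other 9 Frizzleds summed to 123 in supportive and 22.6 in non-supportive ISEMFs, 5.42-fold higher. Fzd1 alone gave 79.8 and 5.32 RPKM of these sums, so this ratio rests largely on 1 gene.

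**Figure D3:**
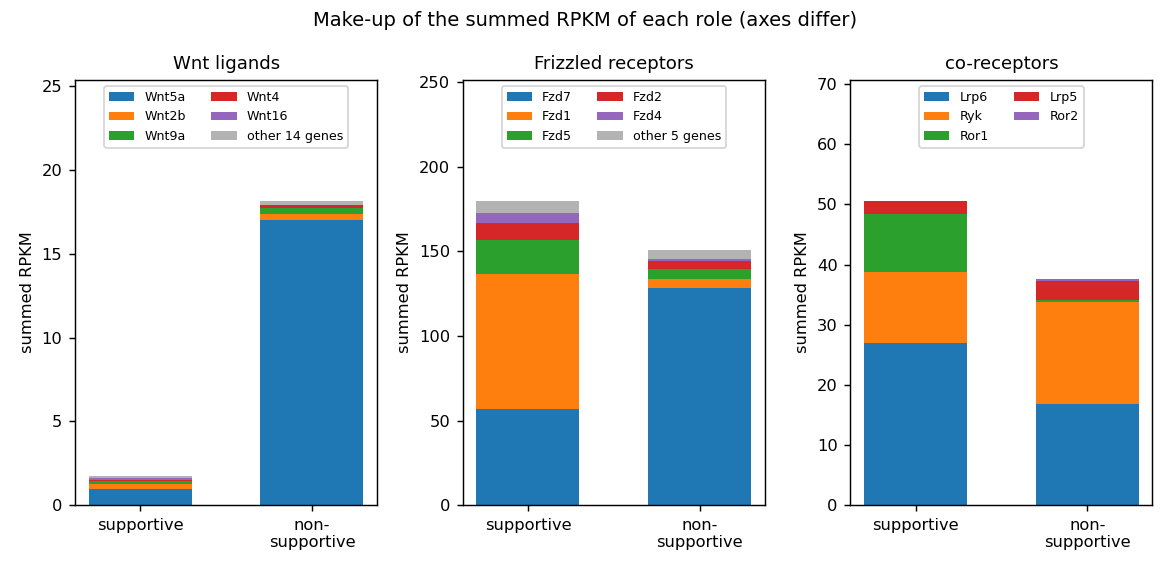
Stacked bars of summed RPKM for the ligands, Frizzleds and co-receptors in each library, with the 5 genes of highest level by name and the rest pooled; the vertical axes differ. The ligand bar falls from 18.1 to 1.77 with Wnt5a. The Frizzled bars stand at 180 and 151, with Fzd1 the largest part in supportive and Fzd7 in non-supportive ISEMFs.

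The co-receptors of the β-catenin branch differed by less than 2-fold. Lrp6, the co-receptor that is phosphorylated when Wnt binds, lies at chr6:134396494-134516983 on the minus strand and had 20439 supportive reads (26.9 RPKM) against 12383 (16.8 RPKM). It was 1.60-fold higher in supportive ISEMFs (1.57 to 1.64). Its relative Lrp5 (chr19:3584825-3686564, minus strand) had 798 reads (2.16 RPKM) against 1125 (3.13 RPKM), 1.45-fold lower (1.32 to 1.59). Lrp6 stood above Lrp5 in both libraries, at 12.5 times its level in supportive and 5.36 times in non-supportive ISEMFs.

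Ror1 and Ror2, receptor tyrosine kinases that bind Wnt5a, held the contrast among the co-receptors. Ror1, at chr4:99768396-100117370 on the plus strand, gave 3913 reads in supportive ISEMFs (9.50 RPKM) and 152 in non-supportive ISEMFs (0.380 RPKM). It was 25.0-fold higher in supportive ISEMFs (21.3 to 29.6), with a log2 ratio of 4.32. Of the 9110 genes, 45 had a log2 ratio at least this high, Ror1 included. Ror1 passed the minimum through the supportive library alone, which favours an extreme place. Ror2, at chr13:53204681-53381493 on the minus strand, gave 4 reads (0.00839 RPKM) and 176 reads (0.380 RPKM). It was 45.3-fold lower in supportive ISEMFs (17.4 to 168) but stayed under an RPKM of 1 in both libraries and so met no call. Supportive ISEMFs therefore held Ror1 with hardly any Ror2, and non-supportive ISEMFs held both at a low level. The equal values there rest on the deposited exon lengths, since on the longest coding transcript Ror2 was at 0.636 and Ror1 at 0.380.

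Ryk, a Wnt-binding receptor without an active kinase, lies at chr9:102737250-102810637 on the plus strand and had 2784 supportive reads (11.9 RPKM) against 3854 (17.0 RPKM), 1.42-fold lower (1.36 to 1.50). Summed over the 5 co-receptors, the RPKM was 50.5 in supportive and 37.7 in non-supportive ISEMFs. Lrp6 made up 53.3% and 44.6% of these sums, Ryk 23.6% and 45.1%, and Ror1 18.8% and 1.01%. Of the Ror kinases, Ror1 was thus high in the library low in Wnt5a, while Ror2 was higher, at a low level, in the library high in Wnt5a.

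**Figure D4:**
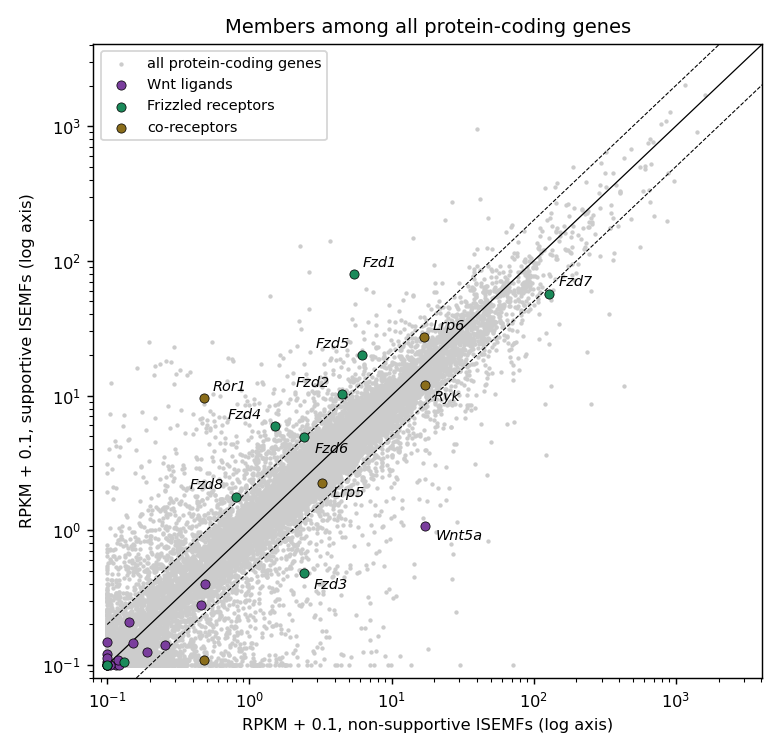
RPKM with 0.1 added, non-supportive (horizontal) against supportive (vertical) ISEMFs on log axes, for all 22379 protein-coding genes (grey) and the members (coloured by role); the solid line marks equal values and dashed lines 2-fold. Fzd1 and Ror1 stand well above the band and Wnt5a and Fzd3 below it, while Lrp5, Lrp6 and Ryk lie within the dashed lines.

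The other genes of the pathway were taken from lists by role, written with earlier results of these data known. Of 5 genes for the making, release or inactivation of Wnts, 3 reached an RPKM of 1. Of these, 0 were called 2-fold, where 18.2% of all expressed protein-coding genes were. Notum, which acts in their inactivation outside the cell, had 0 supportive and 2 non-supportive reads. Wls, the carrier that brings Wnts to the cell surface, was at an RPKM of 64.6 in supportive and 42.4 in non-supportive ISEMFs. Porcn, the enzyme that attaches their lipid, had 69 and 71 reads, at 0.192 and 0.203 RPKM. Tmed2 and Tmed5, which carry cargo out of the endoplasmic reticulum, had 1424 against 2025 and 3093 against 5644 reads.

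A further 9 genes encode the ligand norrin or surface proteins that bind Wnts or their receptors. Of these, 6 were expressed, with 3 called higher and 1 called lower in supportive ISEMFs. Over all expressed protein-coding genes, 9.25% were called higher and 8.98% lower. Tspan12, the partner of Fzd4 in norrin signaling, was at an RPKM of 12.4 against 3.09, on the same side as Fzd4, and Ndp, the norrin gene, had no read in either library. Lrp4 was 6.74-fold higher, with 1727 reads against 249. Reck and Gpr124, which together let Wnt7 ligands signal, went in opposite directions, with Reck at 4.51 against 2.01 and Gpr124 at 1.28 against 8.35.

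Of 16 downstream transducers 12 were expressed, 1 was higher and 0 were lower, beside 9.25% and 8.98% of all expressed protein-coding genes. The one called was Tcf7l1, a DNA-binding partner of β-catenin, at an RPKM of 3.84 against 1.37. Ctnnb1, which encodes β-catenin, was at 78.2 and 67.1 and Gsk3b at 46.9 and 50.9. Of 14 genes of the β-catenin-independent branch, 10 were expressed and 0 were called, where 18.2% of all expressed protein-coding genes were. Over the expressed genes of each list the median log2 ratio was 0.00 for the transducers and -0.02 for this branch, beside -0.07 over all expressed protein-coding genes.

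Of 14 common targets of β-catenin 6 were expressed, 1 higher and 2 lower in supportive ISEMFs. Over all expressed protein-coding genes 9.25% were called higher and 8.98% lower. Lgr5 was at an RPKM of 7.22 with 6702 reads against 4 reads, while Apcdd1 had 69 reads against 331 and Cd44 was at 13.0 against 71.9 RPKM. Axin2, a widely used readout of the pathway, had 7 supportive and 3 non-supportive reads. Below the minimum, the pathway inhibitor Nkd1 had 182 reads against 13, its relative Nkd2 had 97 against 271, and Rnf43, which removes Frizzled from the cell surface, had 12 against 54. Targets thus lay on both sides. The macrophage markers were higher in the same library as Cd44 and Apcdd1, and their part in these differences was not tested.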

How the data were processed

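Single-end 50-base reads were aligned by the authors to mm9 with TopHat2 2.0.4 and Ensembl genes, keeping unique hits, and counted with HTSeq 0.5.4p3, per the labels and methods. The deposited counts are whole numbers of reads for each gene. The deposited RPKM divides them by exon length and by library sizes that the values give as 71463423 (supportive) and 69449374 (non-supportive). Mitochondrial genes took 14.6% of the supportive and 7.85% of the non-supportive reads on genes. The authors' own log2 ratio and DESeq p-value columns, and a shorter deposited Wnt pathway table, were not used here.

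All 34 members matched GENCODE vM1 (the same build) by identifier and chromosome, and 21 had the same exon length there. No test of the populations was made, since 1 library each gives no estimate of the spread, and edgeR and DESeq2 were used for scaling factors alone. Every member is named. Other pathway genes are named where called, with a few further ones by role that were chosen after their values were seen. Genes with 0 reads were set at 3 reads for a ratio, which leaves out the counting error of the other library. The members, lists and thresholds were chosen with earlier results of these data known. The interval and the 2-fold call were checked on simulated counts that held counting error alone, without variation between cultures. The other steps were not checked in this way. No protein sequence was printed. Alternatives are listed in the closing section. Software comprised R 4.3.3 with edgeR 4.0.16 and DESeq2 1.42.0, MAFFT 7.526 for coding alignments, and Python 3.11.15 with scipy 1.17.1, pandas 2.3.3, matplotlib 3.10.9 and numpy 2.4.6.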

Additional observations from a re-analysis of the deposited data

How the results depend on the processing

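No paired analysis was possible because each group has 1 library, and for the same reason no replicate could be left out. The number of members called 2-fold, 10 as reported, was 4 at 4-fold and 6 with an RPKM of at least 1 required in both libraries, and between 7 and 11 under the other alternatives. The Frizzled count of 8 was 5 with a minimum RPKM of 5, which only 5 Frizzleds passed, and 2 of 8 at 4-fold. The ligand count of 1 was 0 when both libraries had to pass an RPKM of 1, since Wnt5a was just under it in the supportive one. The co-receptor count of 1 was 2 with no minimum RPKM or a minimum of 10 reads, which let Ror2 in, and 0 with the minimum in both libraries.

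The median log2 ratio of 1.04 was 0.65 with a pseudocount of 1, 0 with no minimum and -0.18 over the 20 members with at least 10 reads, because both of these let in low ligands. The ligand sum ratio of 0.0979 was 0.106 with mitochondrial genes left out of the library size, 0.0743 from reads without regard to length, 0.0907 on the longest coding transcript and 0.693 without Wnt5a. The Frizzled sum ratio of 1.19 was 1.24 with TMM factors, 1.22 with median-of-ratios factors, 1.29 without mitochondrial genes, 1.25 when centred on the median gene, 1.17 from reads and 5.42 without Fzd7. The co-receptor sum ratio of 1.34 was 1.40, 1.38, 1.46, 1.41 and 1.55 in the same order and 1.13 without Lrp6. Leaving out mitochondrial genes raised the log2 ratios by up to 0.12, and the other scalings by up to 0.04 to 0.07. Of 78 log2 ratios of single expressed members under an alternative, 78 kept their sign, but these alternatives could not have turned one. A pseudocount cannot change a sign, and the log2 ratio nearest to no difference (Ryk, -0.51) is larger in size than any scaling shift. The settings with both libraries above the minimum, the longest transcript and, for the sums, the centring were chosen after seeing the data.

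With 1 library per population, the intervals hold counting error alone, and no statement can be made about how much ISEMF cultures of 1 kind vary. Members with under 10 reads in both libraries are near the limit of detection.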

Other observations

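Of the 19 Wnt genes, 8 lie in 4 neighbouring pairs with no protein-coding gene between them in GENCODE vM1. Wnt6 and Wnt10a stand 6.20 kb apart on chromosome 1, Wnt10b and Wnt1 11.7 kb apart on chromosome 15, Wnt3a and Wnt9a 16.2 kb apart on chromosome 11, and Wnt9b and Wnt3 24.3 kb apart on the same chromosome. Wnt9a had 79 supportive and 154 non-supportive reads where Wnt3a had none. Wnt10b had 6 and 21 where Wnt1 had none. Wnt6 had 7 and 0 where Wnt10a had 1 and 0, and Wnt9b had 4 and 0 where Wnt3 had 2 and 4. No gene of these pairs reached an RPKM of 1.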
